A study of Mus musculus with 14 samples.

Results

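Microglia, the resident macrophages of the brain, are set apart from other macrophages by a small set of lineage genes. The 9 genes described here are the transcription factors Spi1 (which encodes PU.1), Irf8, Runx1, Cebpa, Sall1, Mef2a, Mef2c and Maf, together with Csf1r, the receptor on whose signal microglia depend for survival. They were listed by name, for their known roles in the lineage and with earlier results of these data known, and they are 9 of the 41739 genes in the deposited expression table. RNA was sequenced from microglia that were isolated from mouse brain with magnetic beads, in 14 libraries of 4 groups. The WT groups were Rheb F/F mice, and the KO groups were Rheb F/F; Tmem119-cre ER mice, in which tamoxifen activates a Cre recombinase driven by Tmem119, a microglial gene. Both genotypes therefore carried the floxed Rheb alleles, the Cre was present in the KO groups alone, and all mice were 8 weeks old and given tamoxifen. Rheb encodes the small GTPase that activates the kinase complex mTORC1. For 4 days the mice received a daily injection into the abdominal cavity of PBS (3 WT and 3 KO libraries) or of LPS at 1.0 mg/kg (4 WT and 4 KO libraries), a bacterial cell wall component that provokes inflammation. Libraries carry their label names below: WT904, WT913, WT914, KO911, KO912 and KO915 under PBS, and WT1 to WT4 and KO1 to KO4 under LPS.

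PU.1 opens and occupies most enhancers of macrophages, and IRF8 binds many of them beside PU.1. RUNX1 and C/EBPα act with PU.1 earlier in the myeloid lineage, RUNX1 in the embryonic precursors of microglia and C/EBPα in myeloid progenitors and mature macrophages. SALL1 is a zinc finger factor that among brain cells of the blood lineage marks microglia and holds back inflammatory genes, and the MEF2 factors and MAF bind enhancers of mature, resting microglia. CSF1R is the tyrosine kinase receptor for the cytokines CSF1 and IL-34, and its own gene is a target of PU.1.

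Promoter sequences from RefSeq on mouse build GRCm38.p6 matched 6 of the 9 genes, in 12 windows of alternative starts (Cebpa, Mef2a, Sall1, Irf8, Mef2c and Runx1). The windows were read from 250 bases before to 10 bases after the annotated start. A pair of them is printed because both genes recur in the results and each window carries letters of a named factor class: STAT factors, which act under interferon, in the upstream Irf8 window, and the MEF2 family itself in the Mef2a window. Capitals mark the matches. Both motifs were picked after the sequences had been seen.

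Irf8 promoter, chr8:120736108-120736367, plus strand: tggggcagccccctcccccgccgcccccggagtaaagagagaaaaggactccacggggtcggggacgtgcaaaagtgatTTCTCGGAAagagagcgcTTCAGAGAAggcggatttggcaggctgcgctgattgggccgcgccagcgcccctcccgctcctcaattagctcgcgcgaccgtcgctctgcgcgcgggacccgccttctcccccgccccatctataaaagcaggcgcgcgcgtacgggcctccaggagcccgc

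Mef2a promoter, chr7:67372849-67373108, minus strand: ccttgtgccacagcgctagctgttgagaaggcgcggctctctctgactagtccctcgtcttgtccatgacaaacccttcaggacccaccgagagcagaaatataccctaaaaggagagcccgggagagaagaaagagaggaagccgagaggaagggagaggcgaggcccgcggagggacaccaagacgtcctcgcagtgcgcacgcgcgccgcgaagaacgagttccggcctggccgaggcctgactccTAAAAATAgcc

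In the Irf8 window TTCNNNGAA occurred at 2 places, and 2 of the 12 windows held it (Irf8 and Mef2c), against 7.33% of 32851 RefSeq windows of the same length. The letters TAAAAATA lay across the start site of Mef2a, in 1 of the 12 windows and in 2.52% of all windows. Searched on both strands, the letters GAGGAAGT for PU.1, TGTGGT for RUNX and TTGCNNAA for C/EBP were in 0 of the 12, and in 2.6%, 14.5% and 9.85% of all windows. GGAANNGAA for paired ETS and IRF factors was in 1 of the 12 (Runx1), against 7.23%. TGCTGA for MAF factors was in 2 of the 12, against 16.8% of all windows. These matches describe the letters of short windows and do not show binding.

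Several properties of the libraries bear on what follows. Reads recovered from the deposited values numbered 7998451 to 32304000 per library, and the 9 genes held between 1180 and 219702 reads each. The 10 microglial markers examined summed to 29666 to 38370.5 TPM under PBS and to 16496 to 27112 TPM under LPS. TPM is reads per gene divided by gene length and scaled to 1 fixed total in each library. The labelled cell type was thus plain in every library, though the sum was lower in every LPS library. C1qa was at 5588 to 9805 TPM over all libraries. P2ry12 was at 3484 to 4401 TPM under PBS and at 1032 to 2257 TPM under LPS. The 8 neutrophil markers examined were also present, summing to 4956 to 22720 TPM under PBS and 8978 to 24165 TPM under LPS, with S100a9 and S100a8 the most abundant. The PBS maximum was that of WT914 alone, the other PBS libraries being at 7848 TPM or less, below every LPS library. Libraries WT914 and KO3 stood apart by pituitary hormone transcripts, which made up 8.87% and 3.21% of their totals. The series describes the mice as female, but all 6 PBS libraries held the Y-linked gene Ddx3y at 111 to 146 TPM with Xist at 0.147 TPM or less, and all 8 LPS libraries held Xist at 255 to 574 TPM with Ddx3y at 0.27 TPM or less. The non-coding gene Gm23935 took 0.0566% to 0.248% of the total under PBS and 4.04% to 15.4% under LPS. Sex-linked expression, Gm23935 and treatment thus cannot be told apart in any comparison of LPS with PBS. The targeted gene Rheb was at 32.1 ± 2.39 TPM in WT and 18.2 ± 1.43 TPM in KO under PBS (SD, n = 3). Under LPS it was at 30.8 ± 3.83 and 22.7 ± 2.43 TPM (SD, n = 4). Averaged over treatments Rheb was lower in KO (log2 -0.60 ± 0.08, adjusted p = 0.00315 by limma). It passed under PBS (-0.79 ± 0.12, adjusted p = 0.0163 by limma), a call lost without WT913, WT914, KO911 or KO912 (adjusted p from 0.0604 to 0.0946). It did not pass under LPS (-0.42 ± 0.11, adjusted p = 0.11 by limma).

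In resting WT microglia Csf1r was by far the most abundant of the 9, at 4619 ± 678 TPM (SD, n = 3), and Sall1 followed at 490.1 ± 74.7 TPM. Cebpa came next at 299 ± 41.8 TPM. Maf (209 TPM) and Spi1 (203 TPM) overlapped each other, as did Mef2a (176 TPM) and Irf8 (167 TPM). Mef2c at 99.8 TPM and Runx1 at 38.6 TPM closed the order, each without overlap with its neighbour. Under LPS the order changed. Spi1 stood second in both genotypes, at 292 TPM in WT and 278 TPM in KO, but overlapped Sall1 below it, and Runx1 stood above Mef2c, again with overlap. In KO microglia under PBS the order matched that in WT except that Mef2a (232 TPM) stood above Spi1 (221 TPM), with overlap.

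**Figure D1:**
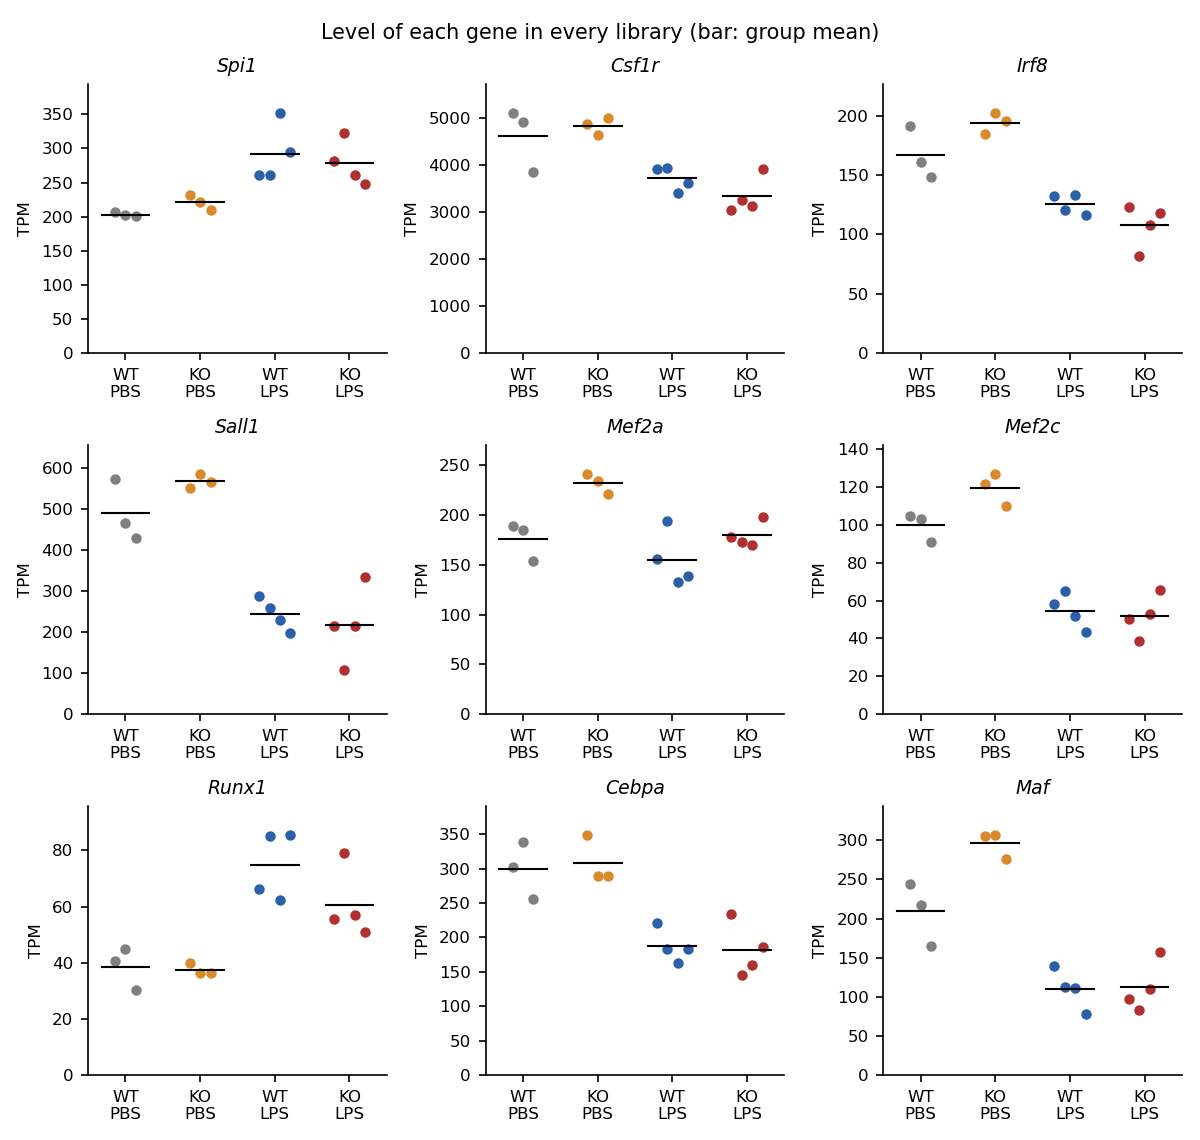
TPM of each of the 9 genes (vertical axes, each from 0) in the 14 libraries, by group (horizontal axes); points are libraries and bars are group means. Spi1 and Runx1 were higher in every LPS library than in every PBS library, while Sall1, Mef2c, Irf8, Cebpa and Maf were lower in every one.

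LPS against PBS was the comparison in which these genes moved. In WT microglia 2 of the 9 genes rose (Spi1 and Runx1) and 5 fell (Irf8, Sall1, Mef2c, Cebpa and Maf) at an adjusted p under 0.05 by limma on log2(TPM + 1). In KO microglia the same 2 rose and the other 7 all fell. Such calls were common here: 42% of the 18724 genes tested passed in WT (7.95% higher and 34.1% lower) and 34.7% in KO (7.82% higher and 26.9% lower). The groups did not overlap for 7 of the 9 genes in WT and 9 of 9 in KO, against 45.9% and 40.8% of all genes tested. The median log2 difference of the 9 was -0.40 in WT and -0.78 in KO, against -0.28 and -0.22 over all genes. Rescaling each library by median-of-ratios size factors sets the typical gene's difference near 0 by design. That shift of all genes then became 0.01 in WT and 0.00 in KO, which is no finding about the libraries. With this scaling the share of calls that were higher went from 18.9% to 55% in WT and from 22.6% to 54.8% in KO. Calls thus depend on the scale, and each gene below is also given on that scale where its call or direction changed. In bulk RNA, fewer cells of a type and less RNA per cell cannot be told apart.

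**Figure D2:**
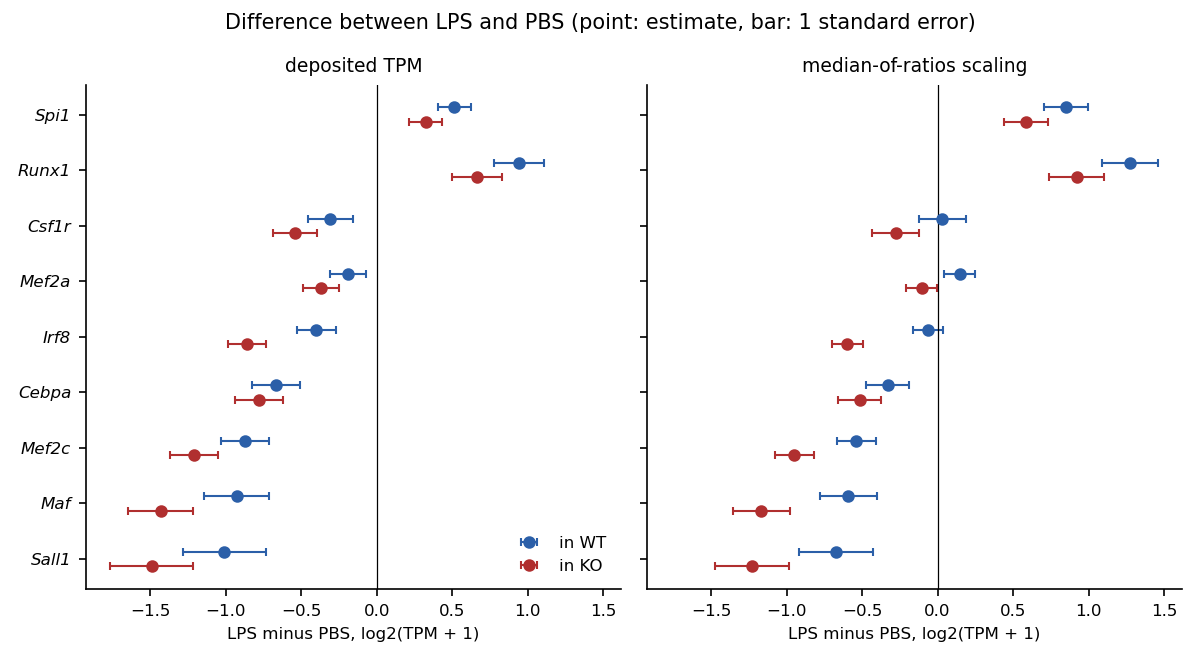
Difference between LPS and PBS in log2(TPM + 1) (horizontal axes) for the 9 genes (vertical axis), in WT (blue) and KO (red), from the deposited TPM (left) and after median-of-ratios scaling (right); points are estimates and bars 1 standard error. Spi1 and Runx1 lie to the right of 0 in both panels, and Csf1r and Mef2a in WT change sign between them.

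The receptor Csf1r held 5097, 4918 and 3844 TPM in WT904, WT913 and WT914, and 3905, 3935, 3392 and 3609.9 TPM in WT1 to WT4. The WT groups overlapped through the low value of WT914, the library with pituitary transcripts. The WT difference was -0.31 ± 0.15 (log2, SE; adjusted p = 0.11 by limma). Without WT914 it was -0.43 and passed (adjusted p = 0.037), and under median-of-ratios scaling it was 0.03. In KO libraries Csf1r ran from 4638 to 4995 TPM under PBS and from 3030.1 to 3904 TPM under LPS without overlap, a fall of 0.54 ± 0.15 on the log2 scale (adjusted p = 0.0125 by limma), which became -0.28 (adjusted p = 0.226) under median-of-ratios scaling and did not pass with no filter on low values (adjusted p = 0.061).

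Of the 12 genes listed as Csf1r ligands, shedding and signalling, 3 rose and 3 fell in WT, and 1 rose and 6 fell in KO. Under median-of-ratios scaling 5 rose and 0 fell in WT, and 2 rose and 2 fell in KO. The ligand gene Csf1 rose in both genotypes and kept its call whichever library was left out. It went from 15.6 to 19.9 TPM under PBS to 53.9 to 76.4 TPM under LPS in WT, and from 30.3 to 31.6 TPM to 44.9 to 92.1 TPM in KO (log2 1.71 ± 0.20, adjusted p = 7.67e-05, and 1.03 ± 0.20, adjusted p = 0.0016, by limma). Il34, the other ligand, was low in all groups, between 4.15 and 22.1 TPM. Inpp5d, which encodes the lipid phosphatase SHIP1, fell from 532 to 359 TPM in WT and from 577 to 311 TPM in KO. Pik3cg, a catalytic subunit of phosphoinositide 3-kinase, fell from 165 to 120.5 TPM in WT and from 169 to 108 TPM in KO. The calls of Inpp5d and Pik3cg in WT were lost under median-of-ratios scaling (-0.22, adjusted p = 0.192, and -0.11, adjusted p = 0.415), and those in KO held (-0.63, adjusted p = 0.00252, and -0.38, adjusted p = 0.0107). Pik3cd, another catalytic subunit, rose from 163 to 202 TPM in WT, and was at 168 and 173 TPM in KO.

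Spi1 varied little under PBS, with 206, 202 and 200.3 TPM in WT904, WT913 and WT914 and 232, 222 and 210.4 TPM in KO911, KO912 and KO915. Under LPS it measured 261, 261, 352 and 295 TPM in WT1 to WT4 and 282, 323, 261 and 247 TPM in KO1 to KO4. Every LPS library was above every PBS library. The rise was 0.51 ± 0.11 in WT (log2, SE; adjusted p = 0.00301) and 0.32 ± 0.11 in KO (adjusted p = 0.0371) by limma. On leaving out KO911, KO912 or KO915 or KO1 or KO2 the KO rise was between 0.25 and 0.36 and did not pass, with adjusted p from 0.0593 to 0.121, while under median-of-ratios scaling the rises were 0.85 and 0.59 and both passed. The KO call was also lost with no filter on low values (adjusted p = 0.0585), with no intensity trend (adjusted p = 0.0603) and without WT914 and KO3 together (adjusted p = 0.0508).

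Runx1 showed the larger rise of the pair. It held 40.7, 44.7 and 30.4 TPM in WT904, WT913 and WT914, and 66.4, 85.2, 62.3 and 85.4 TPM in WT1 to WT4. In KO911, KO912 and KO915 it held 39.8, 36.2 and 36.4 TPM, and in KO1 to KO4 it held 55.5, 79.1, 57 and 51 TPM. The LPS mean was 194% of the PBS mean in WT and 162% in KO (log2 0.94 ± 0.17, adjusted p = 0.00103, and 0.66 ± 0.17, adjusted p = 0.00839, by limma). Both calls held under each alternative that was tried. An antisense gene, Gm26626, shares 0.881% of the exon bases of Runx1 and was at 4.77 to 27.1 TPM, and since no strand setting is given its reads cannot be told apart there.

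Irf8, the factor that binds beside PU.1, moved the other way. It measured 191, 161 and 149 TPM in WT904, WT913 and WT914 and 133, 120.5, 133 and 116 TPM in WT1 to WT4. In KO it measured 184, 202 and 196 TPM in KO911, KO912 and KO915 and 123, 81.6, 108 and 118 TPM in KO1 to KO4, with KO2 the lowest of all 14 libraries. The groups did not overlap in either genotype. Irf8 fell by 0.40 ± 0.13 on the log2 scale in WT (adjusted p = 0.0232) and by 0.86 ± 0.13 in KO (adjusted p = 0.000309) by limma. The WT call was lost on leaving out WT904 (-0.30, adjusted p = 0.114), WT2 (-0.38, adjusted p = 0.0501) or WT4 (-0.36, adjusted p = 0.0569), under median-of-ratios scaling (-0.06, adjusted p = 0.664), without Gm23935 (-0.29, adjusted p = 0.0966) and with voom on recovered reads (-0.24, adjusted p = 0.0932). The KO call held in all of these.

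Cebpa held 302, 339 and 256 TPM in WT904, WT913 and WT914 and 221, 183, 163 and 183 TPM in WT1 to WT4. The KO libraries held 348, 288 and 289 TPM under PBS (KO911, KO912 and KO915) and 233, 146, 160.3 and 186 TPM under LPS (KO1 to KO4). The LPS mean was 62.8% of the PBS mean in WT and 58.8% in KO, with no overlap (fell by 0.67 ± 0.16, adjusted p = 0.00494, and by 0.78 ± 0.16, adjusted p = 0.00215, on the log2 scale by limma). The WT call was lost under median-of-ratios scaling (-0.33, adjusted p = 0.0927).

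Sall1, the factor most particular to microglia among brain macrophages, fell in both genotypes. WT904, WT913 and WT914 held 574, 466 and 431 TPM, and WT1 to WT4 held 287, 259, 229 and 198 TPM. KO911, KO912 and KO915 held 551, 585 and 567 TPM, and KO1 to KO4 held 214, 107, 214 and 334 TPM. No LPS library reached a PBS library, but the KO libraries under LPS spread widely, from 107 TPM in KO2 to 334 TPM in KO4, the highest of the LPS libraries. The LPS mean was 49.6% of the PBS mean in WT and 38.3% in KO (fell by 1.01 ± 0.27, adjusted p = 0.0108, and by 1.49 ± 0.27, adjusted p = 0.00126, on the log2 scale by limma). Under median-of-ratios scaling the WT difference was -0.67 with adjusted p = 0.0548.

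The proteins of Mef2a and Mef2c bind the same letters, and their genes were described side by side. Mef2c held 105, 103 and 91.1 TPM in WT904, WT913 and WT914 and 57.9, 65, 51.7 and 43.4 TPM in WT1 to WT4. In KO it held 122, 127 and 109.9 TPM under PBS (KO911, KO912 and KO915) and 50, 38.6, 52.7 and 65.8 TPM under LPS (KO1 to KO4). It fell by 0.87 ± 0.16 in WT (adjusted p = 0.00123) and by 1.21 ± 0.16 in KO (adjusted p = 0.000139) on the log2 scale by limma, without overlap and under each alternative tried. Mef2a held 189, 185 and 154 TPM in WT904, WT913 and WT914 and 156, 194, 133 and 138 TPM in WT1 to WT4, where WT2 was above all 3 WT PBS libraries. Its WT difference was -0.19 ± 0.12 (adjusted p = 0.213), was -0.30 without WT2 (adjusted p = 0.0265), and was 0.15 under median-of-ratios scaling. In KO it went from 222 to 241 TPM under PBS to 169.9 to 198 TPM under LPS, a fall of 0.37 ± 0.12 (adjusted p = 0.0286) that did not pass on leaving out any of KO911, KO912 or KO915 or KO1, KO2 or KO3 (-0.40 to -0.34, adjusted p from 0.0503 to 0.0881) or under median-of-ratios scaling (-0.11, adjusted p = 0.51). It was also lost without Gm23935 (-0.28, adjusted p = 0.0821), with voom (-0.17, adjusted p = 0.233) and without WT914 and KO3 together (-0.34, adjusted p = 0.053).

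Maf held 244, 218 and 165 TPM in WT904, WT913 and WT914 and 139.7, 113, 111 and 78.3 TPM in WT1 to WT4. KO911, KO912 and KO915 held 306, 307 and 276 TPM, and KO1 to KO4 held 96.9, 83.3, 111 and 158 TPM. The LPS mean was 52.7% of the PBS mean in WT and 37.9% in KO. The fall was 0.93 ± 0.22 in WT (adjusted p = 0.00477) and 1.43 ± 0.22 in KO (adjusted p = 0.000343) by limma, without overlap and under each alternative tried.

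Libraries differed within the LPS groups in a way that ran across several genes. KO2 was the lowest of all LPS libraries for Irf8, Sall1, Mef2c and Cebpa, and KO4 was the highest for Sall1, Mef2a, Mef2c and Maf and the lowest for Spi1 and Runx1. KO4 also had the smallest depth, 7998451 reads, and the lower neutrophil sum of the pair, 11135 TPM against 22891 TPM in KO2. KO1 had the highest neutrophil sum of the LPS libraries, 24165 TPM, with the highest Cebpa (233 TPM) and the lowest Csf1r (3030.1 TPM) among them. The part of neutrophils in these differences was not tested. Under PBS, WT914 was the lowest of the 6 libraries for 9 of the 9 genes.

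Markers of other blood cells moved with treatment as well. The 6 monocyte markers all rose in both genotypes, their sum going from 278 to 1021 TPM under PBS to 1201 to 2218 TPM under LPS, with Chil3 the most abundant under both treatments. The PBS maximum was again WT914, the other PBS libraries being at 494 TPM or less. Of the 8 neutrophil markers 0 passed in WT and 4 rose in KO, and 0 passed for the interaction of genotype and treatment. The WT comparison included WT914, whose neutrophil sum was far above those of the other PBS libraries. The 10 microglial markers summed to 29666 to 38370.5 TPM under PBS. Under LPS their sum lay between 23292 and 27112 TPM in the WT libraries and between 16496 and 22504 TPM in the KO libraries, and with LPS 6 of them fell in WT and 9 in KO. The 8 markers of border macrophages summed to 553 to 1252 TPM under PBS and 533 to 1128 TPM under LPS. The part of monocytes and of neutrophils in the rise of Spi1 and Runx1 was not tested.

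The relatives of these factors were examined through a list of 27 paralogs and partners, of which 25 passed the filter on low values. In WT 10 rose and 5 fell, and in KO 6 rose and 8 fell. Under median-of-ratios scaling 12 rose and 2 fell in WT, and 10 rose and 7 fell in KO. The genes named next kept the call given whichever library was left out, except where stated. In the C/EBP family Cebpb, which encodes an activator of inflammatory genes, rose while Cebpa fell. Cebpb went from 23.4, 24 and 14.9 TPM in WT904, WT913 and WT914 to 260.3, 176, 414 and 377 TPM in WT1 to WT4. In KO it went from 43.7, 34.7 and 33.7 TPM (KO911, KO912 and KO915) to 286, 352, 239 and 263 TPM (KO1 to KO4). The rises were 3.77 ± 0.26 in WT (adjusted p = 1.48e-06) and 2.89 ± 0.26 in KO (adjusted p = 1.09e-05) on the log2 scale by limma.

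Among relatives of PU.1, Spic, which red pulp macrophages of the spleen require, rose from no more than 1.24 TPM in any PBS library to between 7.19 and 27.1 TPM in WT and between 17.7 and 22.2 TPM in KO under LPS (log2 3.09 ± 0.36, adjusted p = 7.64e-05, and 3.73 ± 0.36, adjusted p = 1.49e-05, by limma). In the IRF family Irf7, an interferon-induced regulator, rose in WT from 14.7 to 19.2 TPM to 42.7 to 208.8 TPM (1.91 ± 0.46, adjusted p = 0.00611), and the highest value was that of WT3 alone, the other 3 lying at 44.1 TPM or less. In KO it was at 10.7 TPM under PBS and 26.4 TPM under LPS and did not pass. The KO libraries did not overlap, with 10.1 to 11.8 TPM under PBS and 16.2 to 40.8 TPM under LPS. For the interaction of genotype and treatment 0 of the 25 relatives passed. Irf4 and Irf5 fell with Irf8 in both genotypes, Irf4 by 1.04 ± 0.28 in WT and 1.08 ± 0.28 in KO, and Irf5 by 0.51 ± 0.10 and 0.77 ± 0.10 on the log2 scale. Of these only the WT fall of Irf5 did not pass under median-of-ratios scaling (-0.18, adjusted p = 0.239).

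Sall2, a relative of Sall1, fell from 29.7 to 11 TPM in WT and from 28.1 to 12.2 TPM in KO (-1.36 ± 0.15, adjusted p = 6.57e-05, and -1.17 ± 0.15, adjusted p = 0.000133, by limma), and Sall4 was at 0.0267 TPM or less in all 14 libraries. Maff, a small MAF protein without an activation domain, rose in KO from 8.06 to 32.1 TPM (1.81 ± 0.34, adjusted p = 0.00132 by limma). In WT Maff also rose, from 15.5 to 28 TPM (0.89 ± 0.34, adjusted p = 0.0483 by limma). That WT call was lost on leaving out WT904, WT914, WT1, WT2 or WT4 (0.64 to 0.95, adjusted p from 0.0626 to 0.183). Runx2, chosen after its values were seen, rose beside Runx1, from 1.33 to 4.18 TPM in WT and from 1.26 to 4.53 TPM in KO.

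**Figure D3:**
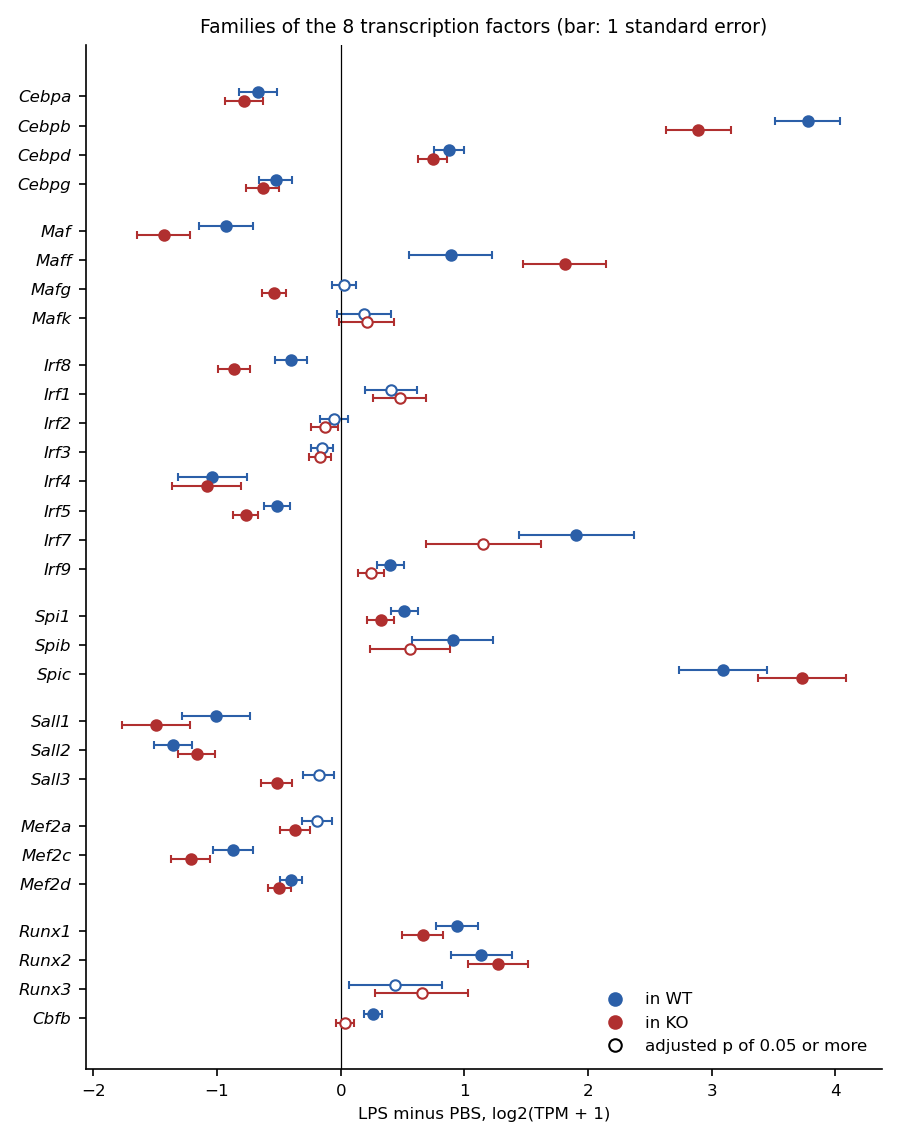
Difference between LPS and PBS in log2(TPM + 1) (horizontal axis) for tested members of the families of the 8 factors (vertical axis), in WT (blue) and KO (red); bars are 1 standard error and open points have adjusted p of 0.05 or more. Within the C/EBP, IRF and MAF families some members lie right of 0 and others left, Cebpb at 3.77 and Cebpa at -0.67 in WT being the widest apart of the C/EBP genes.

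Ratios within a library do not depend on how the library is scaled, and 3 of them, chosen after the values had been seen, are given as descriptions. Cebpb stood at 0.0689 ± 0.0098 of Cebpa in WT and 0.121 ± 0.0045 in KO under PBS (SD, n = 3), and at 1.69 ± 0.746 and 1.64 ± 0.532 under LPS (SD, n = 4). The ratio of Spi1 to Irf8 ran from 1.07 to 1.35 over the PBS libraries and from 1.97 to 3.96 over the LPS libraries. Mef2a was 1.69 to 1.8 times Mef2c in WT and 1.85 to 2.02 times in KO under PBS, and 2.57 to 3.19 and 3 to 4.47 times under LPS. In each of the 3 ratios the PBS and LPS libraries did not overlap. For Cebpb to Cebpa and for Spi1 to Irf8 this was fixed in advance. Cebpb and Spi1 were higher in every LPS library than in every PBS library, and Cebpa and Irf8 were lower.

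**Figure D4:**
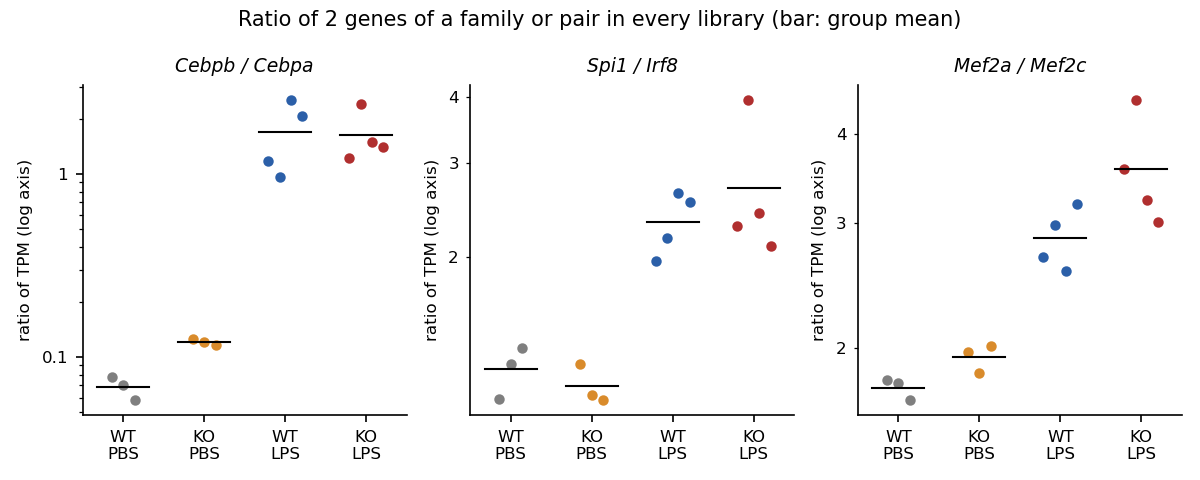
Ratio of the TPM of 2 genes in each library (vertical axes, log scale) by group (horizontal axes); points are libraries and bars are group means. The LPS libraries lie above all PBS libraries in each panel, and the Cebpb to Cebpa ratio moves from 0.0689 to 1.69 in WT. For Cebpb to Cebpa and Spi1 to Irf8 that separation follows from the values of the single genes.

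KO was compared with WT within each treatment. Under PBS 0 of the 9 genes passed by limma, where 1.02% of all genes did (0.796% higher and 0.224% lower), a total of 191 genes that fell to 8 on leaving out KO911. At an unadjusted p under 0.05 there were 2 (Mef2a and Maf), against 15.7% of all genes. The KO estimate was above WT for 8 of the 9, Runx1 being the exception, against 49.1% of all genes, and the median was 0.22 against -0.00. The groups did not overlap for Spi1, Mef2a, Mef2c and Maf, against 25.8% of all genes. Without WT914 6 of the 9 were above 0, Csf1r and Cebpa changing sign to -0.05 and -0.06.

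Mef2a and Maf had the largest estimates. Mef2a was at 222 to 241 TPM in the KO libraries and 154 to 189 TPM in the WT libraries under PBS, 132% of WT on the means (log2 0.40 ± 0.13, adjusted p = 0.157 by limma), and 0.31 without WT914. Maf was at 276 to 307 TPM in KO and 165 to 244 TPM in WT, 142% of WT (0.52 ± 0.23, adjusted p = 0.306), and 0.36 without WT914. Mef2c was at 120% of WT (0.26 ± 0.17, adjusted p = 0.487) and Spi1 at 109% (0.12 ± 0.12, adjusted p = 0.64). Irf8 and Sall1, both at 116% of WT, gave 0.22 ± 0.14 (adjusted p = 0.447) and 0.22 ± 0.29 (adjusted p = 0.749). Csf1r at 105%, Cebpa at 103% and Runx1 at 97.1% of WT were within the spread between libraries.

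Under LPS 0 of the 9 genes passed either, where 0.497% of all genes did (0.256% higher and 0.24% lower), and 0 had an unadjusted p under 0.05, against 11.7% of all genes. Rheb itself did not pass under LPS (adjusted p = 0.11 by limma), but did under median-of-ratios scaling (-0.51, adjusted p = 0.0407). The estimates were below 0 for 7 of the 9, against 37.1% of all genes, with a median of -0.08 against 0.07. Each of the 9 overlapped between the genotypes, where 6.18% of all genes did not. The sum of the 10 microglial markers did not overlap under LPS, being lower in every KO library than in every WT library. Of the 10, 2 were called lower and 0 higher. The sum includes Tmem119, the gene that drives the Cre of the KO mice. Tmem119 was at 844 TPM in KO and 1733 TPM in WT under LPS, and at 2114 and 3467 TPM under PBS. The part of Tmem119 in the sum, and of the sum in these estimates, was not tested. The largest differences were those of Runx1 at 81.1% of WT (-0.30 ± 0.15, adjusted p = 0.477), Sall1 at 89.3% (-0.26 ± 0.25, adjusted p = 0.745), Irf8 at 85.7% (-0.24 ± 0.12, adjusted p = 0.472) and Mef2a at 116% (0.22 ± 0.11, adjusted p = 0.463) by limma. Csf1r was at 89.8% of WT (-0.16 ± 0.14, adjusted p = 0.701). Spi1, Mef2c, Cebpa and Maf were between 95% and 102% of WT. The Sall1 estimate was 0.04 without KO2 and -0.50 at the other extreme of leaving out 1 library.

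**Figure D5:**
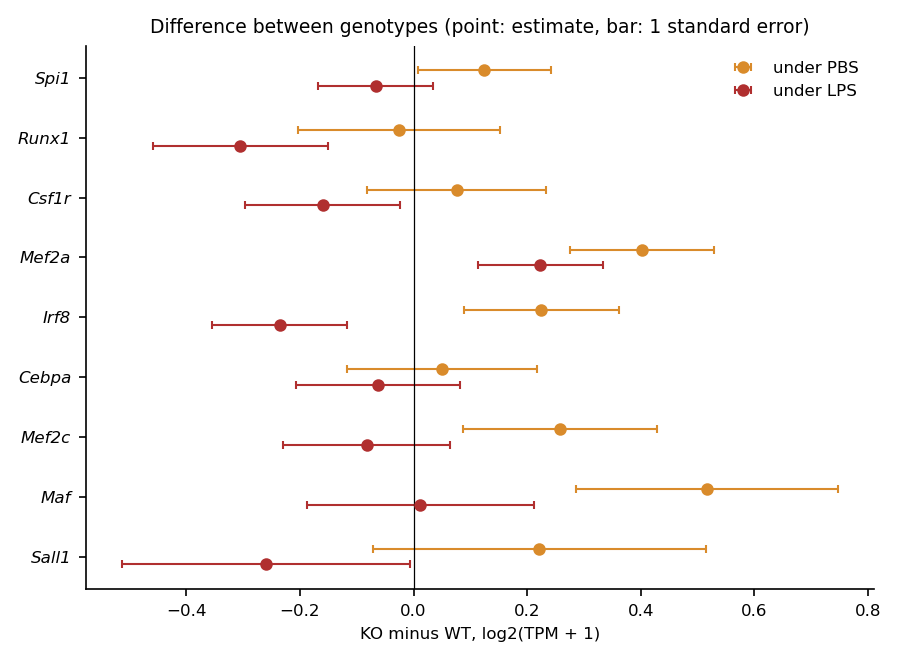
Difference between KO and WT in log2(TPM + 1) (horizontal axis) for the 9 genes (vertical axis) under PBS (orange) and LPS (red); points are estimates and bars 1 standard error. The estimates lie between -0.30 and 0.52, none passed the threshold, and Mef2a is the gene furthest right under LPS, at 0.22.

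Averaged over both treatments, again 0 of the 9 passed, where 3.94% of all genes did (3.03% higher and 0.913% lower). All 9 overlapped between the genotypes pooled over treatment, where 0.7% of all genes did not. For Spi1, Runx1, Sall1, Mef2c, Irf8, Cebpa and Maf that overlap was fixed in advance and tells nothing of genotype. Their LPS and PBS libraries lay fully apart, and each genotype held both treatments. Mef2a came nearest, at 0.31 ± 0.08 (log2, SE; adjusted p = 0.0592 by limma), and was the 1 gene with an unadjusted p under 0.05, against 16.9% of all genes. It passed under 3 alternatives, a filter at 5 TPM (adjusted p = 0.0466), the removal of Gm23935 (adjusted p = 0.0496) and voom on recovered reads (adjusted p = 0.0223), and also without WT2 (0.37, adjusted p = 0.011). These were 4 of the 23 alternatives tried, counting each library left out. Over all 23 the estimate lay between 0.26 and 0.37 and the adjusted p reached 0.166. A gene annotated on the same strand within Mef2a, Gm44667, shares 0 of its exon bases and was at 54.1 to 104 TPM.

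Among relatives of the 9, Mafg, a small MAF partner protein, was higher in KO under PBS, with 173, 169.9 and 162 TPM in KO911, KO912 and KO915 against 108, 107 and 91.3 TPM in WT904, WT913 and WT914 (0.72 ± 0.10, adjusted p = 0.00973 by limma). Without KO911 or KO912 the estimate was 0.70 and 0.71 and did not pass (adjusted p = 0.0705 and 0.0617). It was the only one of the 25 tested paralogs and partners to pass under PBS, and 0 passed under LPS. Averaged over treatments Mafg was higher (0.43 ± 0.07, adjusted p = 0.00464), whichever library was left out, and Cebpd lower (-0.38 ± 0.08, adjusted p = 0.0243), a call lost without WT904 or WT913 or KO912 or KO915 (-0.37 to -0.35, adjusted p from 0.0559 to 0.0738), without Gm23935 (adjusted p = 0.0523) and with voom (adjusted p = 0.0542).

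Another list held 32 other transcription factors of macrophages and microglia. Under PBS 1 was higher in KO, Tal1, a basic helix-loop-helix factor of blood progenitors, at 76.3 against 48.3 TPM (0.66 ± 0.13, adjusted p = 0.0364). It did not pass on leaving out WT913 or WT914 or KO911, KO912 or KO915 (0.53 to 0.70, adjusted p from 0.0891 to 0.128). Under LPS 0 of the 32 passed, and under median-of-ratios scaling 2 were lower. Averaged over treatments 3 were higher and 0 lower (2 and 2 under median-of-ratios scaling), and Lyl1, a relative of Tal1, was the 1 of them that passed whichever library was left out (0.36 ± 0.07, adjusted p = 0.0141). Of the 12 genes of Csf1r signalling 0 passed between genotypes in either treatment, Csf1 having the smallest p under PBS (30.8 TPM in KO against 18.4 TPM in WT, 0.72 ± 0.21, adjusted p = 0.124).

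With LPS the same list of 32 split: 7 rose and 12 fell in WT, and 5 rose and 15 fell in KO. Under median-of-ratios scaling 11 rose and 2 fell in WT, and 6 rose and 8 fell in KO. The risers that held in both genotypes whichever library was left out and on both scales included Nr1h3, which encodes the oxysterol receptor LXRα, from 6.94 to 30.2 TPM in WT and from 4.49 to 34.7 TPM in KO. They also included Id2, from 110.3 to 332 TPM in WT and from 93 to 247 TPM in KO, the helix-loop-helix factor Bhlhe40, from 19.8 to 44.2 TPM and from 11.2 to 44.9 TPM, and Tfec, from 2.09 to 6.22 TPM and from 2.37 to 6.34 TPM. Rxra, the nuclear receptor that pairs with LXRα, fell from 69.2 to 40.6 TPM in WT and from 58.3 to 33.2 TPM in KO on both scales.

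Whether the LPS response itself differed between genotypes was tested as the interaction of genotype and treatment. By limma 0 of the 9 genes and 0 of all 18724 genes passed, 1780 of them at an unadjusted p under 0.05 (9.51%), and by voom on recovered reads 0 genes passed. The interaction estimates were below 0 for 9 of the 9 genes, against 44.1% of all genes, with a median of -0.28 against 0.05. A median below 0 was not particular to them. It was -0.46 for the 10 microglial markers and -0.25 for the 12 genes of Csf1r signalling. The 32 other transcription factors had -0.20, and the 25 paralogs and partners -0.08. Medians of the other marker lists ran from -0.04 to 6.97. Irf8 was the 1 gene of the 9 with an unadjusted p under 0.05 (-0.46 ± 0.18, unadjusted p = 0.0242, adjusted p = 0.497 by limma). Maf (-0.50 ± 0.31, adjusted p = 0.605) and Sall1 (-0.48 ± 0.39, adjusted p = 0.705) had estimates as large with wider errors. Without both libraries that held pituitary transcripts 8 of the 9 were below 0, Cebpa being at 0.05. The larger falls in KO are therefore not shown to differ from those in WT.

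The genes whose pattern over the 14 libraries lay closest to the 3 most variable of the 9 were found by the root mean square difference of centred log2(TPM + 1), among 9223 genes. For Mef2c these were Cx3cr1, the fractalkine receptor of microglia (0.12), Dip2b (0.12) and Prpsap2 (0.13). For Sall1 they were Rtn4rl1, Tppp and Engase (each 0.17), and for Maf they were Klhl25 (0.14), Rab39 (0.17) and Tpbgl (0.18). Cx3cr1 measured 3766 TPM in WT and 4302 TPM in KO under PBS, and 2277 and 1858 TPM under LPS.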

How the data were processed

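RNA-seq of isolated mouse microglia gave 14 libraries. Per the submitters' processing notes, the tools were STAR 2.7.10b, featureCounts 2.0.1, cutadapt 4.4 and FastQC 0.11.9, and the build named is hg38, while the gene identifiers are mouse; annotation and strand setting are not given in the sources used here. The authors deposited TPM (reads per gene divided by gene length, scaled to the same total in each library) for 41739 genes. Symbols were found for 41588. Whole reads were recovered from the TPM through GENCODE M21 exon lengths; 98.4% to 98.6% of values above 0 came out whole within 0.02.

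The 18724 genes that reached 1 TPM in 3 or more libraries were tested with limma 3.58.1 in R 4.3.3 on log2(TPM + 1), with a mean per group, an intensity trend for the spread, which all 4 groups shared, and p-values adjusted over all genes by the Benjamini-Hochberg method; a fold change on this scale understates that of low genes. The fit was tested on simulated data. All 9 genes are named in each comparison. Of the gene lists, called genes are named by size, up to 4 a direction. They are mostly kept to those stable to leaving out libraries, and calls that were lost are marked. Some genes of these lists are not reported here, though the counts include them. The genes and lists were chosen with earlier results of these data known. The labels do not state that each library is a separate animal. The p-values then set differences between groups against no more than the spread between libraries of a group, which may be technical. Replicate numbers are shared by the LPS groups only, and same-numbered libraries did not deviate together (correlation -0.086 to 0.061).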

Additional observations from a re-analysis of the deposited data

How the results depend on the processing

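Alternatives were other pseudocounts (0.1 and 5), no filter, a filter at 5 TPM, median-of-ratios scaling, removal of Gm23935, no intensity trend, a fit of the compared groups alone, removal of WT914 and KO3, voom on recovered reads and leaving out each library. The number of the 9 genes that passed stayed at 0 for KO against WT under PBS, under LPS and for the interaction. Averaged over treatments it was 1 (Mef2a) in place of 0 under the filter at 5 TPM, without Gm23935 and with voom, and 0 to 1 on leaving out 1 library. For LPS against PBS in WT it was 4 in place of 7 under median-of-ratios scaling (Spi1, Mef2c, Runx1 and Maf), and 6 to 8 on leaving out 1 library; in KO it was 7 to 9. The numbers of all genes that passed ranged over the alternatives from 8 to 303 (PBS, 191 as reported), 0 to 315 (LPS, 93), 371 to 841 (averaged, 738), 5493 to 7843 (LPS effect in WT, 7866), 4252 to 6499 (LPS effect in KO, 6494) and 0 to 3 (interaction, 0); 172 passed for KO against WT under LPS after median-of-ratios scaling, of which 15.7% were higher against 51.6% as reported, and under PBS and averaged over treatments those shares were 67.4% against 78%, and 55.8% against 76.8%. With the replicate number as a block, 0 of the 9 genes and 0 of all genes passed for KO against WT under LPS, and the numbers did not pair the libraries.

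Directions changed only for differences that did not pass. Under median-of-ratios scaling these were Maf under LPS (-0.0786), Spi1 averaged (-0.0256), and the LPS effect in WT of Csf1r (0.031) and Mef2a (0.1454). Maf under LPS was -0.0035 without Gm23935 and -0.0023 with voom. Without WT914 and KO3, Csf1r and Cebpa under PBS were -0.0512 and -0.0579, and the interaction of Cebpa was 0.0465. Leaving out 1 library gave ranges across 0 under PBS for Csf1r (-0.0512 to 0.1522), Cebpa (-0.0579 to 0.1454) and Runx1 (-0.1835 to 0.0872); under LPS for Spi1 (-0.1408 to 0.0257), Sall1 (-0.5024 to 0.0425), Mef2c (-0.2042 to 0.0474), Cebpa (-0.1914 to 0.0347) and Maf (-0.1647 to 0.1397); and averaged for Spi1 (-0.008 to 0.0753), Irf8 (-0.0451 to 0.0572), Sall1 (-0.1404 to 0.1321) and Cebpa (-0.0708 to 0.0423). The cause of these changes was not tested.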
